A study of Oryza sativa with 12 samples.

Results

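The 10 genes described here carry nitrogen from nitrate into amino acids in rice. They were taken by identifier and by no rule on their values, but with earlier results of these data known. The genes are the nitrate reductases (NR) LOC_Os08g36480 and LOC_Os02g53130, the nitrite reductase (NiR) LOC_Os01g25484, the glutamine synthetases GS1;1 (LOC_Os02g50240), GS1;2 (LOC_Os03g12290) and GS2 (LOC_Os04g56400), the glutamate synthases Fd-GOGAT (LOC_Os07g46460) and NADH-GOGAT1 (LOC_Os01g48960), and the asparagine synthetases (AS) LOC_Os03g18130 and LOC_Os06g15420. They are 10 of the 33780 identifiers listed for at least 1 cultivar. Of these genes 8 were listed in all 12 libraries, and NiR and GS2 were listed for 93-11 only. Expression was measured by RNA-seq in shoots (aerial parts) of 93-11, an Indica cultivar, and Nip (Nipponbare), a Japonica cultivar. The 4 groups were 93-11 HS, 93-11 normal, Nip HS and Nip normal, each of 3 libraries, and how many seedlings made up a library is not given in the sources used here. All seedlings were 3 weeks old and grew on Yoshida solution, a hydroponic medium, with 10 h of light at 800 μmol m-2 s-1 and 14 h of dark. Seedlings of the HS (heat stress) groups then spent 36 h at 45 °C in dimmer light, at 60 to 80 μmol m-2 s-1, and in air above 80% humidity. The humidity of normal growth is not given in the sources used here. Temperature and light changed together in the HS groups, humidity possibly too, and their parts in any difference given below cannot be told apart.

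Plants take up nitrate and reduce it in 2 steps. NR in the cytosol makes nitrite, and NiR in the plastid makes ammonium. Glutamine synthetase then fixes ammonium onto glutamate, with GS2 in the plastid and the GS1 forms in the cytosol, and glutamate synthase returns the nitrogen of glutamine to glutamate. In leaves Fd-GOGAT draws its electrons from ferredoxin, which photosynthesis reduces, and works with GS2 on ammonium from nitrate and from photorespiration, while NADH-GOGAT uses NADH. Asparagine synthetase moves the amide group of glutamine to aspartate, and asparagine is a nitrogen-rich compound that plants store and transport.

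The values are taken to be FPKM (fragments per gene, corrected for gene length and library size), the unit that the study's methods name for expression. The authors computed them for each gene and library after aligning the reads of each cultivar to its own genome. Summed over genes, FPKM reached 794246 to 810922 in 93-11 HS against 582896 to 617044 in 93-11 normal libraries, and 552167 to 561203 in Nip HS against 785851 to 798491 in Nip normal libraries. The depth of the libraries is unknown from the values, and no counting error is given, so each value rests on its 3 replicates. A list of 5 heat shock protein genes summed to 4031 to 4414 FPKM in 93-11 HS against 48.0 to 54.9 FPKM in 93-11 normal libraries, and to 563 to 576 FPKM in Nip HS against 36.9 to 43.8 FPKM in Nip normal libraries, with no overlap between HS and normal libraries in either cultivar. A list of 6 genes of green tissue (Rubisco small subunits, Rubisco activase and light-harvesting proteins) summed to 1202 to 1244 FPKM in 93-11 HS against 26993 to 29625 FPKM in 93-11 normal libraries. For the 5 of them listed in Nip the sums were 7687 to 8172 FPKM in HS against 29134 to 30567 FPKM in normal libraries. All listed genes of green tissue were above 1 FPKM in at least 1 library of every group, while of 3 root markers RCc3 and Lsi2 stayed under 1 FPKM throughout. The remaining root marker, LOC_Os02g51110 (Lsi1, a silicon channel of roots), stood at 0.331 to 0.774 FPKM in 93-11 HS against 7.71 to 8.79 FPKM in 93-11 normal, and at 28.6 to 30.5 FPKM in Nip HS against 7.60 to 9.21 FPKM in Nip normal libraries. These marker sums moved with the HS groups, and their part in the results was not tested. In such bulk samples, fewer cells of a type and less RNA per cell cannot be told apart.

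Upon HS most of these genes were downregulated in 93-11, while 1 asparagine synthetase and NADH-GOGAT1 were upregulated. A gene was called when limma on log2(FPKM + 1) gave an adjusted p under 0.01 (Benjamini-Hochberg, over all genes tested) with a change of 1 or more in size on the log2 scale. In 93-11 all 10 genes passed the filter on low values (1 FPKM in 3 libraries); 2 were called higher, 6 lower and 2 neither, beside 22.7% of all 20340 genes called higher and 27.5% called lower (50.2% in either direction). Their median log2 fold change was -1.71, and that of all genes tested was 0.03. In Nip 8 genes were tested, of which 1 was called higher, 4 lower and 3 neither, beside 9.69% of all 20724 genes called higher and 17.8% called lower (27.5% in either direction). Their median log2 fold change was -1.22, against -0.04 over all genes tested. HS and normal libraries did not overlap for any of the genes tested, 10 in 93-11 and 8 in Nip, but the same was true of 87.7% of all genes tested in 93-11 and 81.9% in Nip. Lack of overlap alone therefore says little of these genes.

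**Figure D1:**
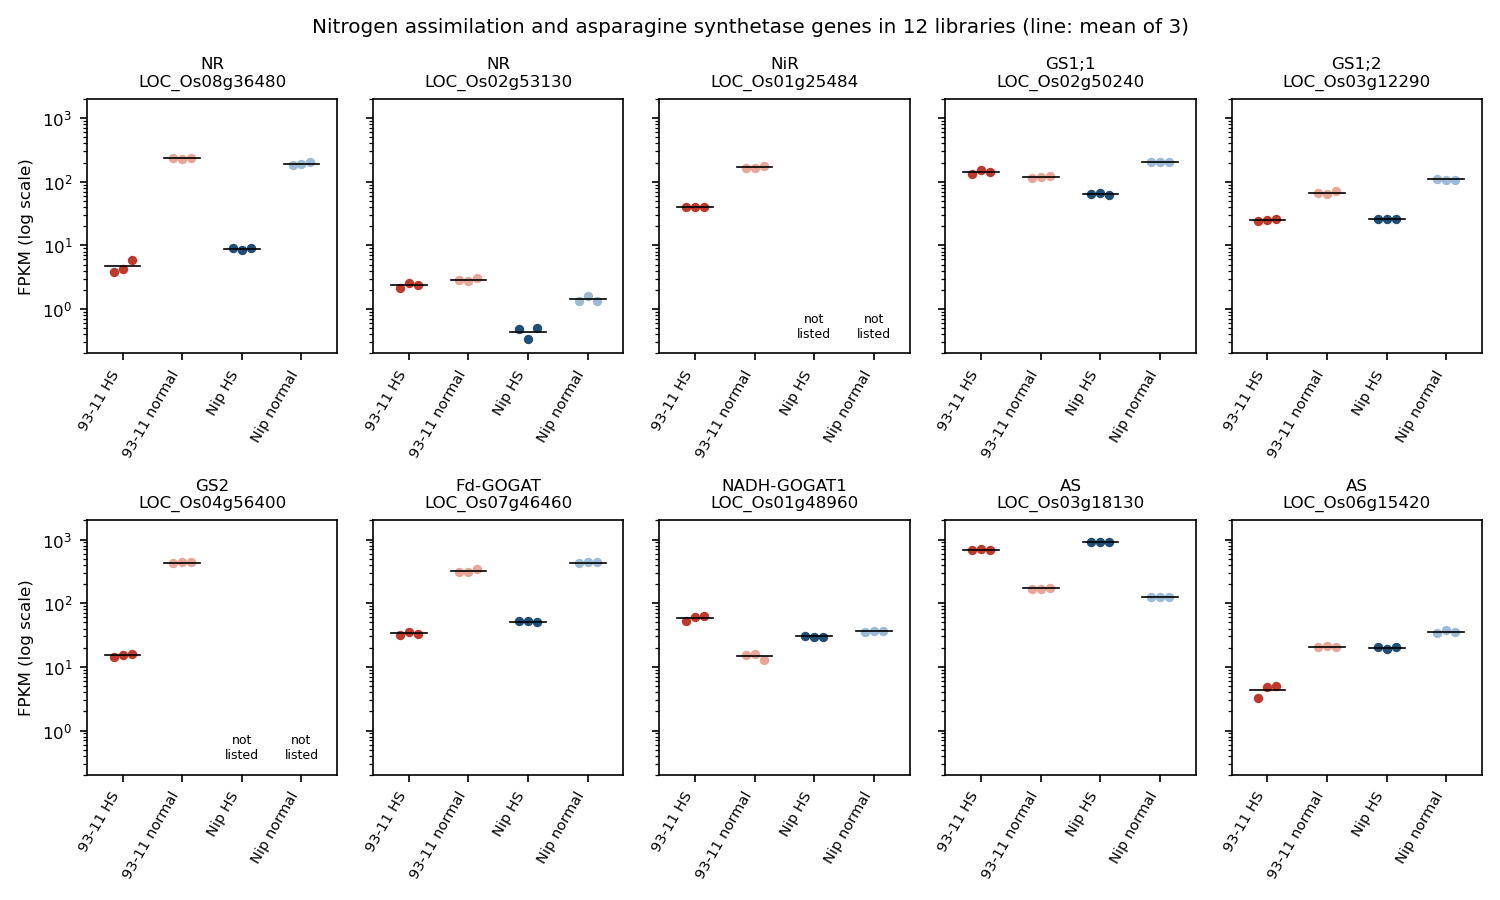
FPKM on a log scale for each of the 10 genes in the 12 libraries, with points for libraries and a line for the mean of the 3 replicates of 93-11 HS, 93-11 normal, Nip HS and Nip normal. LOC_Os03g18130 is the highest of the genes in both HS groups, at 676 to 703 FPKM in 93-11 and 919 to 928 FPKM in Nip, while NiR and GS2 have no values in Nip.

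The first enzyme of the pathway had the largest change in size among the genes tested here, 10 in 93-11 and 8 in Nip. The nitrate reductase LOC_Os08g36480 was 49.6-fold lower in HS than in normal 93-11 seedlings and 21.4-fold lower in Nip. In 93-11 it had 3.81, 4.32 and 5.97 FPKM in the HS libraries, against 234, 231 and 235 FPKM in the normal libraries. In Nip its values were 9.08, 8.59 and 8.98 FPKM in HS, against 181, 186 and 202 FPKM in normal libraries. Every HS library of both cultivars lay far below every normal library, and the 93-11 HS replicates spread more in proportion than the others. The log2 fold change was -5.38 in 93-11 (SE, the standard error, 0.12, adjusted p = 1.125e-09, limma) and -4.27 in Nip (SE 0.049, adjusted p = 8.143e-11, limma). Of all genes tested only 0.757% in 93-11 and 0.579% in Nip had a larger change in size. The fall was deeper in 93-11 by 1.11 on the log2 scale (difference -1.11, SE 0.14, adjusted p = 1.228e-05, limma), a difference called lower as 19.6% of all 19583 genes in the 12-library fit were. Over the 8 genes listed for both cultivars the difference between the responses was called in 4, 2 higher in 93-11 and 2 lower, beside 40.5% of all genes. The call of LOC_Os08g36480 sat at the threshold of 1, since the difference was -0.997 without 93-11 HS replicate 1 and -0.94 after quantile normalization, but -2.03 with each library rescaled to the same sum.

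The other nitrate reductase, LOC_Os02g53130, was low throughout and was not called in either cultivar. In 93-11 it had 2.14, 2.54 and 2.34 FPKM in HS, against 2.82, 2.72 and 3.06 FPKM in normal libraries. Nip libraries showed 0.490, 0.339 and 0.497 FPKM in HS, against 1.32, 1.59 and 1.34 FPKM in normal libraries, and it passed the filter there only through the normal libraries. HS lay below normal in both cultivars without overlap, by a narrow margin in 93-11. Its log2 fold change came to -0.21 in 93-11 (SE 0.094, adjusted p = 0.06266, limma) and -0.74 in Nip (SE 0.11, adjusted p = 0.0002138, limma), and neither was called. The log2(FPKM + 1) scale understates changes at this level, and with a pseudocount of 0.1 the Nip value became -1.49 and was called lower. The 93-11 value turned to 0.19 after quantile normalization and was -0.57 with libraries rescaled to the same sum. The difference between the responses, 0.53 (SE 0.12, adjusted p = 0.001724, limma), was under the threshold of 1, but it was 1.21 and called higher with the pseudocount of 0.1, 0.83 after quantile normalization and only 0.068 with rescaled sums (adjusted p = 0.6748, limma).

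LOC_Os08g36480 accordingly made up less of the summed expression of both these NR genes in HS. In 93-11 its share was 64.1%, 62.9% and 71.8% in the HS libraries, against 98.8%, 98.8% and 98.7% in the normal libraries. In Nip it was 94.9%, 96.2% and 94.8% in HS, against 99.3%, 99.2% and 99.3% in normal libraries, a change of -3.98 points that became -11.5 points from FPKM + 1. The HS shares lay below the normal shares in both cultivars, with an exact two-sided permutation p of 0.1 in each, the smallest that 3 against 3 libraries allow. The summed FPKM of both genes was 7.04 ± 1.19 in HS and 236 ± 2.31 in normal 93-11 libraries (SD, n = 3 each), and 9.33 ± 0.347 in HS and 191 ± 10.9 in normal Nip libraries (SD, n = 3 each). These sums and shares leave out a further nitrate reductase, LOC_Os08g36500. In Nip that gene averaged 1.86 FPKM in HS and 4.02 FPKM in normal libraries, against 0.442 and 1.41 FPKM for LOC_Os02g53130. In 93-11 it averaged 0.154 and 2.08 FPKM, against 2.34 and 2.87 FPKM for LOC_Os02g53130. With LOC_Os08g36500 counted, the shares of LOC_Os08g36480 would be lower than those given.

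NiR (LOC_Os01g25484), the next enzyme, was listed for 93-11 alone and fell less than LOC_Os08g36480. It had 39.6, 40.3 and 39.4 FPKM in the HS libraries, against 162, 164 and 176 FPKM in the normal libraries. The groups were far apart, and the mean was 4.22-fold lower in HS (log2 fold change -2.05, SE 0.045, adjusted p = 1.042e-09, limma). In HS NiR had 39.7 ± 0.470 FPKM and LOC_Os08g36480 had 4.70 ± 1.13 FPKM, whereas in normal 93-11 seedlings NiR, at 168 ± 7.70 FPKM, was below LOC_Os08g36480, at 233 ± 2.17 FPKM (SD, n = 3 each). The order of both enzymes by level was thus the opposite in HS.

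The plastid form of glutamine synthetase was strongly downregulated in 93-11 upon HS. GS2 (LOC_Os04g56400) had 14.5, 15.2 and 15.9 FPKM in the HS libraries, against 426, 443 and 439 FPKM in the normal libraries. It was 28.7-fold lower in HS (log2 fold change -4.75, SE 0.045, adjusted p = 2.365e-11, limma), and 1.47% of the genes tested in 93-11 changed more in size. GS2 ranked between 138 and 146 among the 29036 identifiers of 93-11 in the normal libraries, the highest of the 10 genes, but between 6765 and 7156 in the HS libraries.

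The cytosolic glutamine synthetases changed by less in size, and GS1;1 responded differently in the cultivars. GS1;1 (LOC_Os02g50240) had 135, 152 and 143 FPKM in 93-11 HS, against 114, 120 and 122 FPKM in 93-11 normal libraries. In Nip it had 64.9, 65.4 and 62.8 FPKM in HS, against 202, 207 and 205 FPKM in normal libraries. In 93-11 the HS libraries thus lay slightly above the normal ones, and in Nip all HS libraries lay at less than 66 FPKM and all normal ones above 200. The log2 fold change was 0.27 in 93-11, which was not called (SE 0.054, adjusted p = 0.001515, limma), and -1.65 in Nip, which was called lower (SE 0.030, adjusted p = 7.457e-10, limma). The difference between the responses was 1.92 (SE 0.063, adjusted p = 2.085e-11, limma), called higher beside 20.9% of all genes. The direction in 93-11 depended on the scaling: it was -0.027 after quantile normalization and -0.16 with each library rescaled to the same sum. With that rescaling the difference was 0.99, just under the threshold, and after quantile normalization it was 1.17.

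GS1;2 (LOC_Os03g12290) was downregulated in both cultivars. It had 23.7, 25.2 and 25.8 FPKM in 93-11 HS, against 65.7, 63.5 and 71.3 FPKM in 93-11 normal libraries. In Nip the values were 25.8, 26.0 and 26.0 FPKM in HS, against 110, 108 and 108 FPKM in normal libraries. The HS groups of both cultivars came to almost the same level, while the normal level was higher in Nip. On the log2 scale the change was -1.39 in 93-11 (SE 0.058, adjusted p = 4.7e-08, limma) and -2.03 in Nip (SE 0.032, adjusted p = 3.444e-10, limma). The difference of 0.64 (SE 0.065, adjusted p = 1.23e-06, limma) was under the threshold of 1, was 0.28 after quantile normalization and turned to -0.28 with libraries rescaled to the same sum.

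The makeup of glutamine synthetase expression in 93-11 was mostly cytosolic in HS, against mostly plastid in normal seedlings. GS2 held 8.39%, 7.90% and 8.60% of the summed FPKM of the 3 genes in 93-11 HS libraries, against 70.4%, 70.7% and 69.4% in normal libraries (exact two-sided permutation p = 0.1, the smallest possible). The sum itself was 183 ± 10.0 FPKM in HS and 621 ± 14.6 FPKM in normal libraries (SD, n = 3 each). Among the GS1 pair alone, GS1;1 held 85.2 ± 0.561% in HS and 64.0 ± 1.29% in normal 93-11 libraries, and 71.3 ± 0.486% in HS and 65.3 ± 0.540% in normal Nip libraries (SD, n = 3 each), a share added after the data had been seen. The GS1;1 share was higher in HS without overlap in both cultivars.

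**Figure D2:**
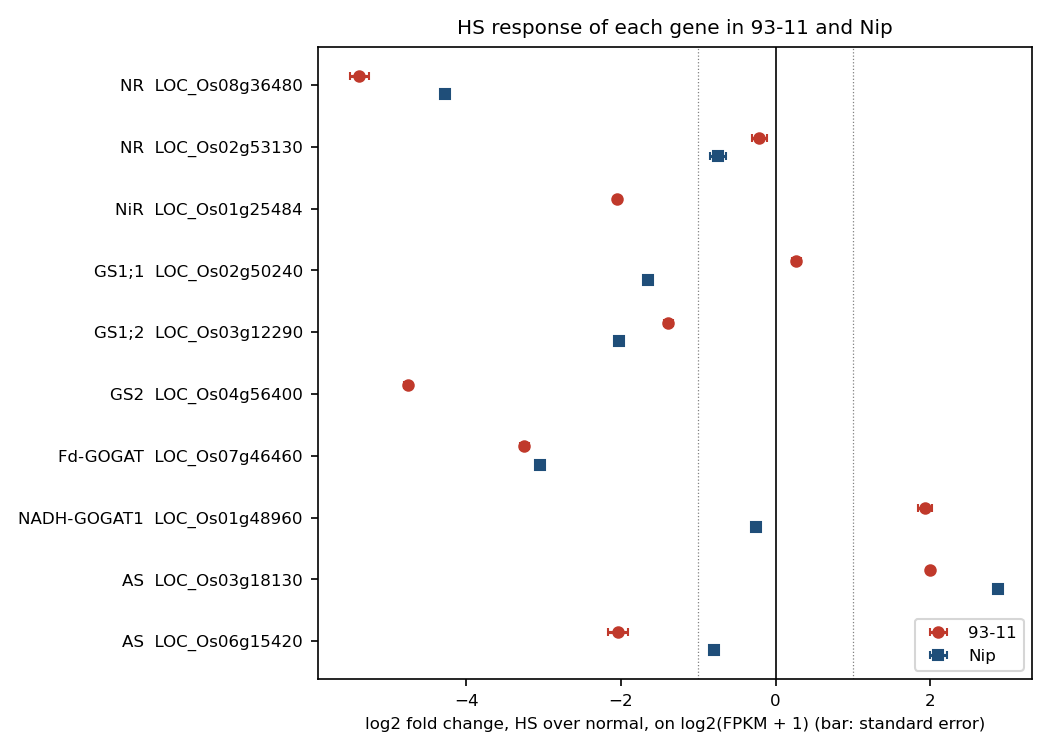
Log2 fold change of HS over normal on log2(FPKM + 1) for each gene, with circles for 93-11, squares for Nip, bars for the standard error, often smaller than the symbol, and dotted lines at the threshold of 1 in size. LOC_Os08g36480 lies furthest to the left in both cultivars, followed in 93-11 by GS2, and LOC_Os03g18130 lies furthest to the right, at 1.9996 in 93-11 and 2.87 in Nip. GS1;1 and NADH-GOGAT1 are the genes with a positive value in 93-11 and a negative one in Nip, signs that change with the scaling for GS1;1 in 93-11 and for NADH-GOGAT1 in Nip.

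The glutamate synthases also moved apart. Fd-GOGAT (LOC_Os07g46460) was 9.75-fold lower in HS than in normal 93-11 seedlings and 8.40-fold lower in Nip. It had 32.1, 34.8 and 33.4 FPKM in 93-11 HS, against 314, 313 and 351 FPKM in 93-11 normal libraries. Nip seedlings had 52.6, 51.8 and 50.3 FPKM in HS, against 427, 437 and 437 FPKM in normal libraries. In both cultivars it was among the most abundant of the 10 genes in normal seedlings and stood at a middle level in HS. Its log2 fold change was -3.25 in 93-11 (SE 0.056, adjusted p = 2.94e-10, limma) and -3.05 in Nip (SE 0.030, adjusted p = 5.193e-11, limma). The difference of -0.20 did not pass the test (SE 0.065, adjusted p = 0.01341, limma), but it was -0.86 after quantile normalization, and -1.13 and called lower with libraries rescaled to the same sum.

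NADH-GOGAT1 (LOC_Os01g48960) was upregulated in 93-11 and was not called in Nip. It had 52.9, 61.6 and 62.5 FPKM in 93-11 HS, against 15.6, 15.9 and 12.9 FPKM in 93-11 normal libraries. In Nip it had 30.8, 30.0 and 29.3 FPKM in HS, against 34.8, 36.2 and 37.2 FPKM in normal libraries. The 93-11 HS libraries were the highest of all 12 and the 93-11 normal libraries the lowest. The 93-11 mean was 3.99-fold higher in HS (log2 fold change 1.93, SE 0.093, adjusted p = 1.145e-07, limma). The Nip value was -0.26 (SE 0.042, adjusted p = 0.0005485, limma), and it turned to 0.0052 after quantile normalization and 0.24 with libraries rescaled to the same sum. The difference between the responses was 2.18 (SE 0.11, adjusted p = 1.132e-09, limma) and was called higher. It stayed past the threshold but was smaller, at 1.64, after quantile normalization and at 1.29 with rescaled sums.

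Fd-GOGAT held a smaller share of the summed expression of both these GOGAT genes in HS. In 93-11 its share was 37.7%, 36.1% and 34.8% in HS libraries, against 95.3%, 95.2% and 96.5% in normal libraries. In Nip it was 63.1%, 63.4% and 63.2% in HS, against 92.5%, 92.3% and 92.2% in normal libraries. NADH-GOGAT1 was thus the more abundant form in 93-11 HS only, with the exact two-sided permutation p at its smallest value of 0.1 for HS against normal in each cultivar. The sum of both genes was 92.4 ± 6.42 FPKM in HS and 341 ± 19.9 FPKM in normal 93-11 libraries, and 81.6 ± 1.94 FPKM in HS and 470 ± 7.08 FPKM in normal Nip libraries (SD, n = 3 each). The sums and shares of GS and GOGAT leave out LOC_Os03g50490 and LOC_Os05g48200, further genes of these enzymes. In 93-11 they averaged 4.28 and 2.24 FPKM in HS, against 0.364 and 0.454 FPKM in normal libraries. In Nip they averaged 0.534 and 1.75 FPKM in HS, against 0.702 and 0.733 FPKM in normal libraries.

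Asparagine synthetase moved against most of the pathway, through 1 of its 2 genes. LOC_Os03g18130 was upregulated in both cultivars, 4.02-fold in 93-11 and 7.36-fold in Nip. In 93-11 it had 676, 703 and 679 FPKM in HS, against 167, 169 and 176 FPKM in normal libraries. In Nip its values were 928, 922 and 919 FPKM in HS, against 125, 125 and 126 FPKM in normal libraries. The replicates were close, and the HS libraries stood far above the normal ones in both cultivars. On the log2 scale the change was 1.9996 in 93-11 (SE 0.039, adjusted p = 5.163e-10, limma) and 2.87 in Nip (SE 0.024, adjusted p = 2.202e-11, limma). In Nip HS libraries it ranked between 45 and 47 of the 28459 identifiers listed, against 896 to 909 in Nip normal libraries. In 93-11 it ranked between 141 and 144 in HS, against 466 to 478 in normal libraries, of 29036 listed. The response was smaller in 93-11 by a log2 difference of -0.87 (SE 0.040, adjusted p = 5.454e-10, limma), which was under the threshold of 1 in size, but the difference was -2.01 after quantile normalization and -1.81 with libraries rescaled to the same sum, and was called lower under both.

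LOC_Os06g15420, the other asparagine synthetase, moved the opposite way. In 93-11 it had 3.27, 4.83 and 5.03 FPKM in HS, against 20.3, 21.4 and 20.9 FPKM in normal libraries. Nip libraries had 20.5, 19.4 and 20.5 FPKM in HS, against 34.4, 37.3 and 35.5 FPKM in normal libraries. The lowest level was that of 93-11 HS, and the levels of Nip HS and 93-11 normal libraries overlapped. It was 4.77-fold lower in HS in 93-11 and called (log2 fold change -2.04, SE 0.13, adjusted p = 6.612e-07, limma), and 1.77-fold lower in Nip, where -0.80 on the log2 scale was under the threshold of 1 (SE 0.047, adjusted p = 8.468e-07, limma) and was -0.31 with libraries rescaled to the same sum. The difference between the responses was -1.25 (SE 0.15, adjusted p = 4.884e-06, limma) and was called lower, though not in a test against a difference of 1 (adjusted p = 0.1873, limma treat). With libraries rescaled to the same sum it was -2.19.

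Since LOC_Os03g18130 was the far more abundant form, the sum of both asparagine synthetases was higher in HS, at 690 ± 15.2 FPKM in HS and 192 ± 4.84 FPKM in normal 93-11 libraries, and 943 ± 4.53 FPKM in HS and 161 ± 1.75 FPKM in normal Nip libraries (SD, n = 3 each). LOC_Os06g15420 held 0.633 ± 0.134% of this sum in HS and 10.9 ± 0.325% in normal 93-11 libraries, and 2.14 ± 0.0647% in HS and 22.2 ± 0.684% in normal Nip libraries (SD, n = 3 each). A share of LOC_Os03g18130 among the 8 genes listed for both cultivars was not planned and was added after the data had been seen. It was 72.8%, 71.1% and 71.0% of the summed FPKM in 93-11 HS, against 17.9%, 18.1% and 17.7% in 93-11 normal libraries. In Nip this share was 82.0%, 82.1% and 82.2% in HS, against 11.2%, 11.0% and 10.9% in normal libraries. A share within a library is free of the scaling between libraries, and for each of these shares the exact two-sided permutation p was 0.1, the smallest possible. At its smallest value this p only restates that HS and normal shares did not overlap. It is no support for the share that was not planned, since the data had been seen. It adds little for the other, since the genes were chosen with earlier results of these data known.

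**Figure D3:**
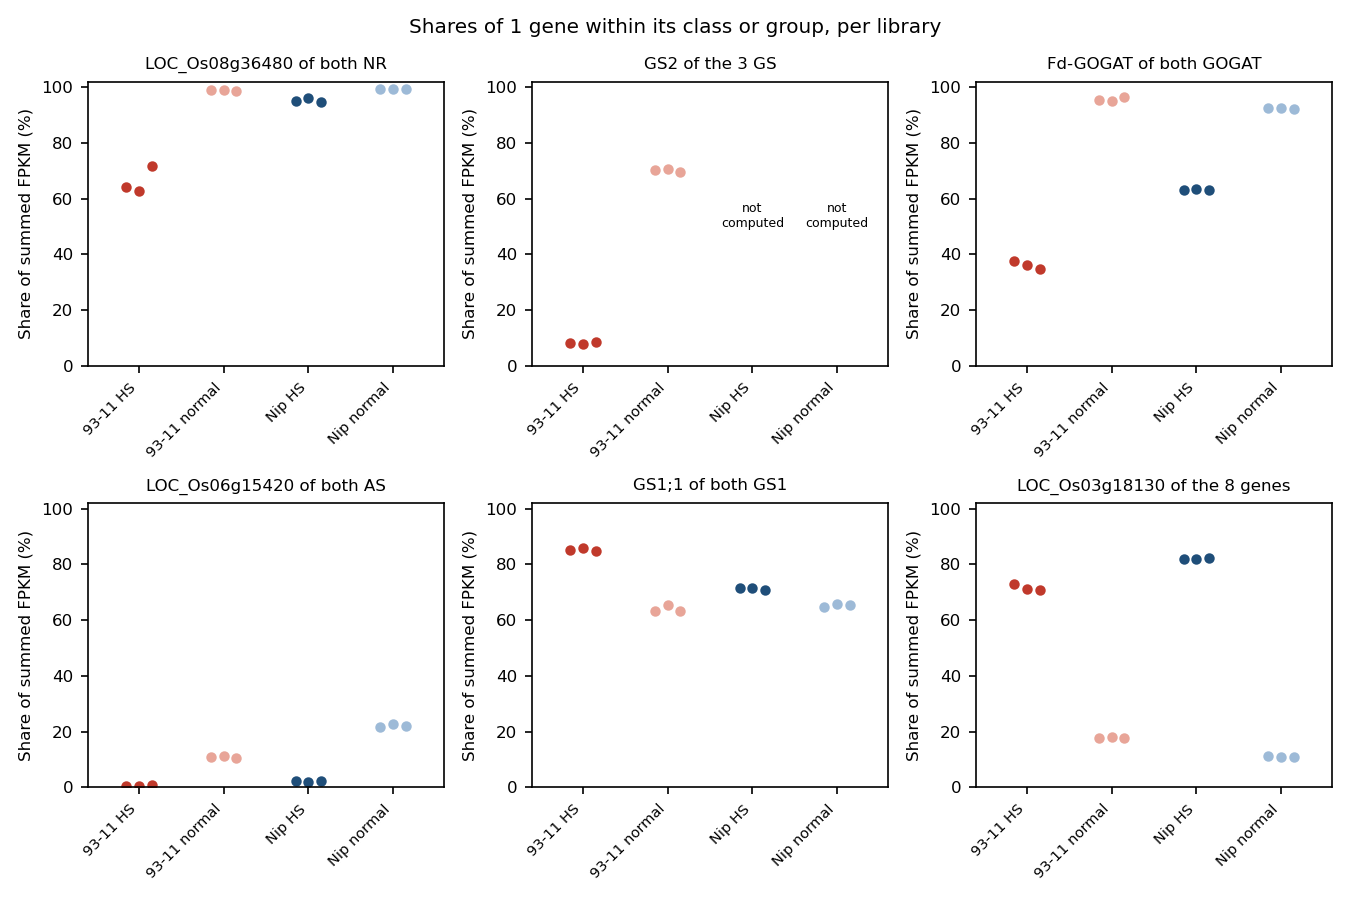
Share of summed FPKM in percent held by 1 gene among the members of its class, or among the 8 genes listed for both cultivars, with a point for each library of 93-11 HS, 93-11 normal, Nip HS and Nip normal. GS2 holds 7.90% to 8.60% of the summed FPKM of the member glutamine synthetases in 93-11 HS against 69.4% to 70.7% in 93-11 normal libraries. LOC_Os03g18130 holds over 70% of the 8 genes in every HS library of both cultivars, a share that was not planned.

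The order of the genes by level changed accordingly. In HS of both cultivars LOC_Os03g18130 came first and GS1;1 second. In 93-11 normal seedlings the order began with GS2, Fd-GOGAT and LOC_Os08g36480, followed by LOC_Os03g18130 and NiR, whose libraries overlapped. In Nip normal seedlings, where GS2 and NiR were not listed, it began with Fd-GOGAT, GS1;1 and LOC_Os08g36480. LOC_Os08g36480 and LOC_Os06g15420 overlapped in 93-11 HS, and NADH-GOGAT1 and LOC_Os06g15420 overlapped in Nip normal libraries. No other neighbours in these orders overlapped. FPKM, the unit the values are taken to have, is scaled by the length of each gene, so levels of different genes can be set side by side.

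Levels were also compared between the cultivars under the same condition, for the 8 genes listed for both. Reads were aligned to a different genome for each cultivar, so gene models may differ in these comparisons. In HS 2 genes were called higher in 93-11, 1 was called lower and 5 were not called, beside 16.5% of all genes called higher and 27.2% called lower (43.7% in either direction). LOC_Os02g53130 was 5.30-fold higher in 93-11 than in Nip in HS (log2 fold change 1.21, SE 0.088, adjusted p = 2.832e-08, limma, and 2.18 with a pseudocount of 0.1), and GS1;1 was 2.22-fold higher (log2 fold change 1.14, SE 0.044, adjusted p = 4.669e-11, limma). The fold of LOC_Os02g53130 rests on low values, since its Nip HS libraries were at 0.339 to 0.497 FPKM. Neither call held in a test against a log2 change of 1 (adjusted p = 0.04787 for LOC_Os02g53130 and 0.01346 for GS1;1, limma treat). LOC_Os06g15420 was 4.60-fold lower in 93-11 (log2 fold change -1.99, SE 0.10, adjusted p = 8.514e-10, limma). The GS1;1 call was lost after quantile normalization, at 0.66, and with libraries rescaled to the same sum, at 0.61. NADH-GOGAT1 was 1.97-fold higher in 93-11 in HS, but its log2 fold change of 0.95 was just under the threshold (SE 0.077, adjusted p = 8.849e-08, limma). That value was 1.23 with median ratios and 1.02 without 93-11 HS replicate 1, both called higher, but 0.43 with rescaled sums. In normal seedlings no gene was called higher in 93-11 and only NADH-GOGAT1 was called lower, beside 7.14% of all genes called higher and 13.4% called lower (20.5% in either direction). NADH-GOGAT1 was 2.44-fold lower in 93-11 (log2 fold change -1.24, SE 0.077, adjusted p = 1.322e-08, limma), a call lost under every other scaling tried, at -0.90 after quantile normalization, -0.86 with rescaled sums and -0.91 with median ratios. The median log2 difference of the 8 genes was -0.24 in HS and -0.55 in normal seedlings, against -0.29 and -0.31 over all genes tested.

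GS2 and NiR have no value in Nip. Unlisted identifiers were common: of 1074 LOC identifiers with a mean of at least 100 FPKM in 93-11, 80 (7.45%) were unlisted in Nip, among them Rubisco activase (LOC_Os11g47970). The identifiers numbered next in the lists, looked at after the data had been seen, showed the reverse pattern. LOC_Os04g56405, next to GS2, had 219, 217 and 222 FPKM in Nip HS, against 1279, 1278 and 1252 FPKM in Nip normal libraries, but 1.59, 1.44 and 1.86 FPKM in 93-11 HS, against 0.741, 1.11 and 0.923 FPKM in 93-11 normal libraries. LOC_Os01g25500, next to NiR, had 119, 120 and 120 FPKM in Nip HS, against 314, 318 and 322 FPKM in Nip normal libraries, but 7.32, 5.50 and 4.59 FPKM in 93-11 HS, against 6.69, 5.15 and 6.41 FPKM in 93-11 normal libraries. Both were thus abundant in Nip alone, and both were called lower there in HS, LOC_Os04g56405 by a log2 value of -2.53 (SE 0.025, adjusted p = 5.193e-11, limma) and LOC_Os01g25500 at -1.40 (SE 0.026, adjusted p = 8.593e-10, limma). Neither the values nor the reference table used here say what these identifiers encode. Whether they hold the reads of GS2 and NiR in Nip was not tested.

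**Figure D4:**
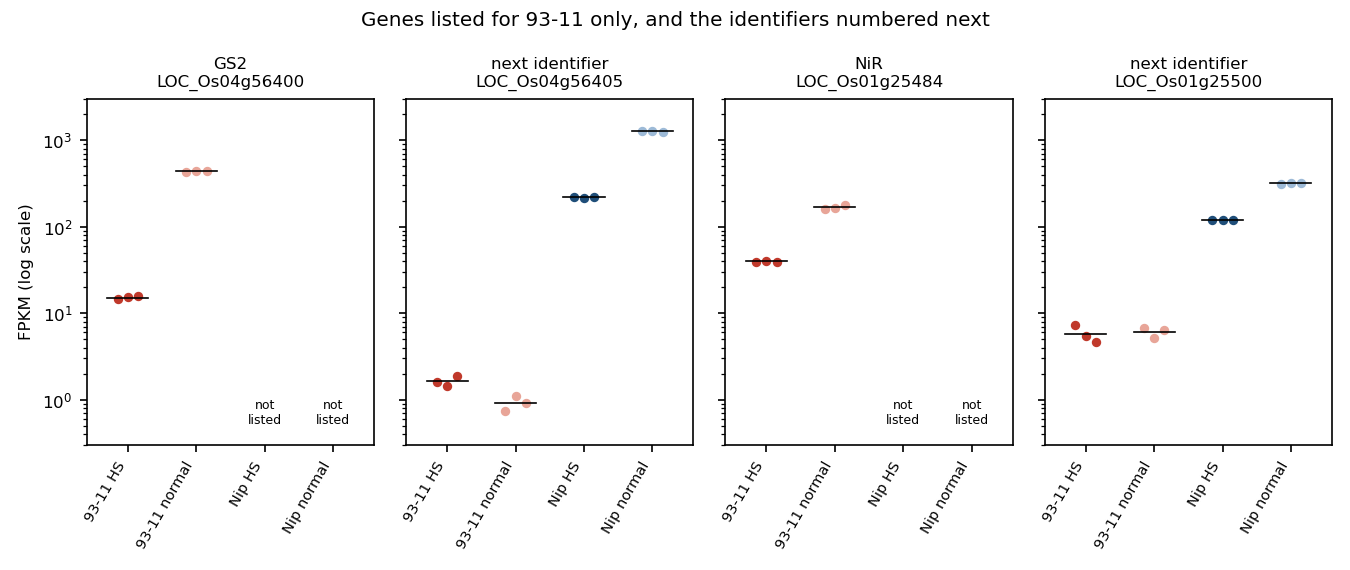
FPKM on a log scale in the 12 libraries for GS2, NiR and the identifier numbered next after each, with points for libraries and lines for means of 3. GS2 and NiR have values in 93-11 only, while LOC_Os04g56405 and LOC_Os01g25500 are at 217 to 1279 FPKM and 119 to 322 FPKM in Nip and under 8 FPKM in 93-11.

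Other genes of nitrogen metabolism were taken from a list of 31 in 6 classes, assigned from general knowledge of rice genes since neither the values nor the reference table name them. In 93-11 23 of them were tested, of which 9 were called higher, 6 lower and 8 neither, beside 22.7% of all genes called higher and 27.5% called lower. In Nip 20 were tested, of which 2 were called higher, 3 lower and 15 neither, beside 9.69% and 17.8% of all genes. The shares called lower in 93-11, and called in both directions in Nip, were thus near those of all genes. Of the list genes tested 8 in 93-11 and 3 in Nip passed the filter through 1 condition only, with no library of the other reaching 1 FPKM, and all 8 in 93-11 and 1 in Nip were called, so the counts partly follow from the filter. The median log2 fold change of those tested was 0.64 in 93-11 and -0.52 in Nip. Of 7 ammonium transporters tested in each cultivar, 2 were called higher and 2 lower in 93-11, and 1 was called higher and 3 lower in Nip. Of these 7, 2 in 93-11 and 1 in Nip had passed the filter through 1 condition only, and all of those were called. Of 5 nitrate transporters and partner genes tested in 93-11, 3 were called higher and 2 lower, but 3 of these 5 had passed the filter through 1 condition only. For the difference between the responses 23 were tested, of which 7 were called higher in 93-11 and 2 lower, beside 20.9% and 19.6% of all genes. How many of these passed the filter mainly through 1 group was not counted, so these counts too may partly follow from the filter.

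The genes of this list called in both cultivars were a glutamate dehydrogenase and 3 ammonium transporters. The share of all genes called in both cultivars was not counted, so their number says little. Their calls were not checked under the other scalings. Glutamate dehydrogenase can release ammonium from glutamate or fix it, and LOC_Os04g45970 of this class rose most. It had 867, 913 and 881 FPKM in 93-11 HS, against 51.2, 52.0 and 52.9 FPKM in 93-11 normal libraries. In Nip it had 203, 201 and 207 FPKM in HS, against 30.3, 28.3 and 31.9 FPKM in normal libraries. The HS libraries of 93-11 stood far above all others, and those of Nip stood above both normal groups. It was 17.1-fold higher in HS in 93-11 (log2 fold change 4.07, SE 0.038, adjusted p = 2.365e-11, limma) and 6.75-fold higher in Nip (log2 fold change 2.72, SE 0.045, adjusted p = 4.354e-10, limma), and the difference of 1.35 was called higher (SE 0.057, adjusted p = 2.346e-10, limma). Rescaling libraries to the same sum shifted the median difference of all genes by -0.87. Whether the difference of LOC_Os04g45970 stays past the threshold of 1 under that scaling was not tested. In 93-11 HS its level, at 887 ± 23.6 FPKM, was above that of LOC_Os03g18130, at 686 ± 14.6 FPKM (SD, n = 3 each).

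Ammonium transporters carry ammonium across membranes. LOC_Os04g43070 was at 30.1 to 30.7 FPKM in 93-11 HS against 91.3 to 97.4 FPKM in 93-11 normal, and at 51.2 to 53.3 FPKM in Nip HS against 137 to 144 FPKM in Nip normal libraries, with log2 fold changes of -1.62 and -1.42 in 93-11 and Nip. LOC_Os05g39240 was at 43.1 to 46.6 FPKM in 93-11 HS against 15.4 to 17.1 FPKM in 93-11 normal, and at 84.5 to 87.9 FPKM in Nip HS against 27.1 to 29.9 FPKM in Nip normal libraries, with log2 fold changes of 1.38 and 1.57. These 2 transporters thus moved in opposite directions, each alike in both cultivars. LOC_Os02g40730 was low, at 0.671 to 0.785 FPKM in 93-11 HS against 2.78 to 3.24 FPKM in 93-11 normal and 0.0693 to 0.198 FPKM in Nip HS against 1.61 to 1.87 FPKM in Nip normal libraries. It was called lower in both, but it had passed the filter only through the normal libraries, so that its call says little. The nitrate transporter LOC_Os10g40600, singled out after its values were seen, is given as a description. It had 0.853, 0.545 and 0.706 FPKM in 93-11 HS, against 25.6, 26.8 and 29.2 FPKM in 93-11 normal libraries. In Nip the gene had 18.4, 18.9 and 18.7 FPKM in HS, against 14.2, 16.3 and 16.1 FPKM in normal libraries. Only the 93-11 HS libraries were near 0. It passed the filter in 93-11 through the normal libraries only, so that its call there says little. The counts above include LOC_Os10g40600, called lower in 93-11 and for the difference between the responses. LOC_Os08g36500, a further nitrate reductase whose identifier lies next to LOC_Os08g36480, had 0.154 ± 0.0512 FPKM in HS and 2.08 ± 0.0964 FPKM in normal 93-11 libraries, and 1.86 ± 0.276 FPKM in HS and 4.02 ± 0.354 FPKM in normal Nip libraries (SD, n = 3 each). How reads shared by such related neighbours were assigned is not given in the sources used here, so the values of both are uncertain to that extent.

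**Figure D5:**
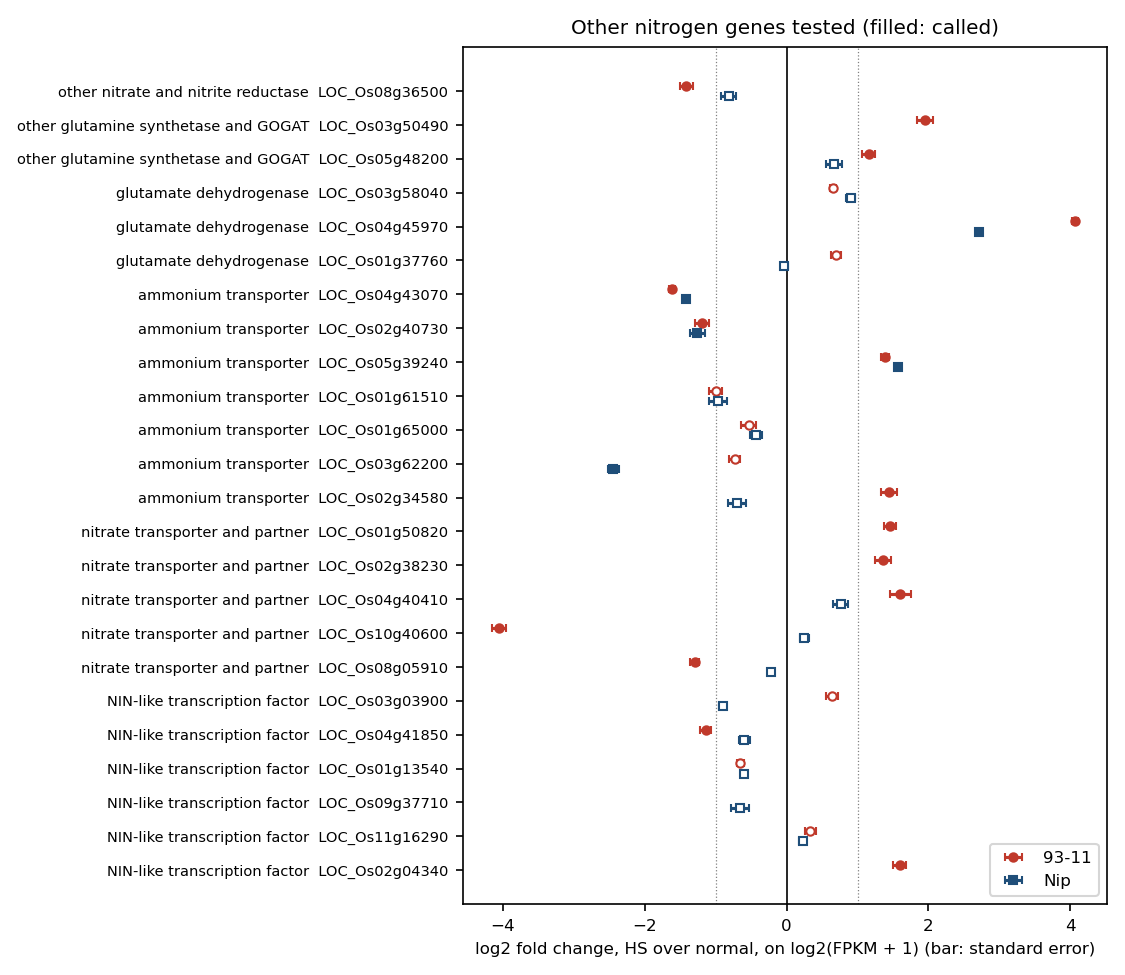
Log2 fold change of HS over normal on log2(FPKM + 1) for the listed nitrogen genes that were tested, grouped by class, with circles for 93-11, squares for Nip, filled symbols for called genes and bars for the standard error. LOC_Os04g45970 lies furthest to the right in both cultivars, at 4.07 in 93-11 and 2.72 in Nip. LOC_Os10g40600 lies at -4.05 in 93-11, where it passed the filter through the normal libraries only, and at 0.25 in Nip.

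For each asparagine synthetase the identifiers with the most similar profile of log2(FPKM + 1) over the 12 libraries were sought among all 19583 tested in both cultivars. For LOC_Os03g18130 these were LOC_Os10g37240, LOC_Os04g42600 and LOC_Os03g58720, with Pearson's r of 0.997, 0.995 and 0.994. Their levels and ranges were smaller, and LOC_Os10g37240 averaged 97.4 FPKM in 93-11 HS, 55.1 FPKM in 93-11 normal, 112 FPKM in Nip HS and 46.3 FPKM in Nip normal libraries. For LOC_Os06g15420 they were LOC_Os01g12740, LOC_Os04g45490 and LOC_Os02g51570, each with r of 0.997. LOC_Os04g45490 averaged 8.58 FPKM in 93-11 HS, 60.8 FPKM in 93-11 normal, 55.0 FPKM in Nip HS and 117 FPKM in Nip normal libraries. The 12 libraries fall into 4 groups of replicates, so r describes mainly the order and spacing of 4 means and is given as a description.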

How the data were processed

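RNA-seq was done on shoots of 93-11 and Nip seedlings (HS and normal, 3 biological replicates each per the study's methods). The authors deposited 1 expression value per gene and library, taken here to be FPKM. The values were made from stranded, poly(A)-selected libraries aligned to each cultivar's genome. Their methods name STAR and featureCounts, whereas the submitters' processing notes name HISAT2 (2.0.4), StringTie (1.3.4d) and DESeq2, and the tool that gave FPKM and the genome builds are not given in the sources used here. The values are no counts, and steps among low values did not yield whole reads, so depth is unknown and no counting error is given.

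Genes reaching 1 FPKM in 3 or more libraries were tested by limma-trend (limma 3.58.1 in R 4.3.3) on log2(FPKM + 1), separately for each cultivar. Calls used the study's thresholds, an adjusted p under 0.01 (Benjamini-Hochberg over all genes tested) with a log2 change of 1 or more in size. Differences between cultivars came from a joint fit of all 12 libraries, restricted to the 19583 tested identifiers that both cultivars list. Fold values are ratios of mean FPKM, whereas log2 changes were fitted on log2(FPKM + 1). Shares were computed per library. On simulated data with 200 genes changed by a log2 value of 2, the fits recovered 193 in 93-11 (0 wrong calls among 20340 genes), 191 in Nip (1 wrong among 20724) and 198 for the difference (0 wrong among 19583). The simulated libraries had independent noise, no shift in scaling and far fewer changed genes than were called in the data. The simulation therefore checks the code only and says nothing of wrong calls that come from scaling.

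The members, the lists and the rule for named genes were chosen with earlier results of these data known. All 10 genes are named, as are listed nitrogen genes called in both cultivars (at most 6) and the 3 identifiers closest in profile to each asparagine synthetase. Alternatives tried were 3 other scalings, a pseudocount of 0.1, no filter, a replicate block, leaving out each replicate, 1 joint fit for the within-cultivar comparisons, and limma treat with a minimum log2 change of 1. None of the identifiers matched the reference table, so no sequence or coordinate is given. Figures were drawn in Python 3.11.15.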

Additional observations from a re-analysis of the deposited data

Results flagged for a closer look

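In 4 of the 8 genes listed for both cultivars the HS response differed between 93-11 and Nip by the interaction term of the 12-library limma fit and by at least 1 on the log2 scale, beside 40.5% of all genes tested. The response of NADH-GOGAT1 (LOC_Os01g48960) was higher in 93-11 by 2.18 (adjusted p = 1.132e-09), with all 3 HS libraries above all normal libraries in 93-11 and below them in Nip. HS and normal libraries also did not overlap for 87.7% of all genes tested in 93-11 and 81.9% in Nip. The Nip log2 value of NADH-GOGAT1 turned to 0.0052 after quantile normalization and 0.24 with libraries rescaled to the same sum. The response of GS1;1 (LOC_Os02g50240) was higher in 93-11 by 1.92 (adjusted p = 2.085e-11). That of the asparagine synthetase LOC_Os06g15420 was lower in 93-11, at -1.25 (adjusted p = 4.884e-06), and that of the nitrate reductase LOC_Os08g36480 was lower at -1.11 (adjusted p = 1.228e-05). With libraries rescaled to the same sum these differences were 1.29 for NADH-GOGAT1, 0.99 for GS1;1, -2.19 for LOC_Os06g15420 and -2.03 for LOC_Os08g36480.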

How the results depend on the processing

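The replicate numbers were not taken to pair the libraries. Same-numbered HS and normal libraries deviated together with correlations of -0.06 to 0.05 in 93-11 and 0.03 to 0.04 in Nip. Each HS library correlated best with its own number in Nip but not in 93-11, so a weak pairing in Nip is not excluded. With the replicate block the counts of called genes did not move (2 higher and 6 lower in 93-11, 1 and 4 in Nip, 2 and 2 for the difference, 2 and 1 between cultivars in HS, 0 and 1 in normal seedlings).

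Of 706 log2 values of the members under alternatives, 675 kept their direction and their side of the threshold, 13 lost a call, 11 gained one and 7 turned in sign. The counts within 93-11 and within Nip stayed within 1.5 times under every alternative run. Genes called lower in 93-11 went from 6 to 4 in the joint fit of 12 libraries, where NiR and GS2 were not tested. In Nip they went from 4 to 5 with a pseudocount of 0.1. The counts between cultivars moved with the scaling. Rescaling libraries to the same sum shifted the median of all genes by -0.41 in 93-11, 0.48 in Nip and -0.87 for the difference (-0.51 between cultivars in HS, 0.37 in normal seedlings), and turned GS1;1 in 93-11 to -0.16, NADH-GOGAT1 in Nip to 0.24 and the GS1;2 difference to -0.28. The difference then had 1 gene called higher and 4 lower, the comparison in HS 1 and 3, and that in normal seedlings 1 and 0. Quantile normalization, which shifted the median of all genes by 0.25 between cultivars in HS and 0.29 in normal seedlings, turned LOC_Os02g53130 in 93-11 to 0.19, GS1;1 in 93-11 to -0.027 and NADH-GOGAT1 in Nip to 0.0052, and left 1 gene higher and 2 lower between cultivars in HS and 0 lower in normal seedlings. Median ratios turned GS1;2 between cultivars in HS to 0.22 and left 0 lower in normal seedlings. They also brought NADH-GOGAT1 between cultivars in HS to 1.23, which was called higher. Tested against a log2 fold change of 1, 0 genes stayed lower for the difference, 0 higher in HS and 0 lower in normal seedlings. Leaving out each replicate gave 1 to 2 genes lower for the difference, with 1 left without 93-11 HS replicate 1. The cause of these moves was not tested. Over all genes, the share of calls that were higher was 35.3% in Nip, against 66.4% with rescaled sums and 45.8% after quantile normalization, 45.3% in 93-11 against 31.6% with rescaled sums, 51.6% for the difference against 18.2% with rescaled sums, 37.7% between cultivars in HS against 21.8% with rescaled sums and 48.7% with quantile normalization or median ratios, and 34.8% in normal seedlings against 55% to 59% under the 3 other scalings.

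From FPKM + 1 the HS minus normal share changed to -11.5 points for LOC_Os08g36480 of both member NR genes in Nip, -61.3 for GS2, -10.5 for LOC_Os06g15420 of AS in 93-11 and 70.5 for LOC_Os03g18130 of the 8 genes in Nip.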
